A study of Rattus norvegicus with 4 samples.

Results

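Among 758 mature rat miRNAs on the array, 4 are described here as a set: rno-miR-1896, rno-miR-6216, rno-miR-3584-5p and rno-miR-3473. They were chosen by their measured signal, which was well above background on all 4 arrays, and by probes rich in C, which means that the miRNAs themselves are rich in G. Detection on all 4 arrays is therefore given as a description and supports nothing further. It held for 11 miRNAs, or 1.45% of the 758, and these 4 are among the 11. The prefix rno-, for rat, is left out from here on.

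The study measured miRNAs in extracellular vesicles, small particles that cells shed within a membrane, on single-colour (Cy3) Agilent microarrays. In the M1_OA group (n = 2 arrays) the vesicles came from macrophages grown from marrow of male Sprague-Dawley rats whose right knee was operated on at 8 weeks of age. The operation combined destabilisation of the medial meniscus (DMM) with anterior cruciate ligament transection (ACLT), to produce osteoarthritis (OA). These macrophages were polarised to the inflammatory M1 state for 48 hours with interferon-γ at 20 ng/mL and lipopolysaccharide (LPS) at 100 ng/mL, followed by 5 mM ATP for 60 minutes. In the M0_sham group (n = 2 arrays) they came from unpolarised (M0) macrophages from sham-operated male rats of the same strain. Rats of both groups arrived at 6 weeks of age and had surgery at 8 weeks. Both groups began as marrow cells sorted for CD45 and CD11b, taken 8 weeks after surgery and kept until day 7 in medium with fetal bovine serum and M-CSF at 20 ng/mL. Marrow-derived cells stand in for synovial macrophages, and surgery, polarisation and ATP change together, so their effects cannot be told apart.

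A mature miRNA guides an Argonaute protein to messenger RNAs, mostly through its seed, bases 2 to 8 counted from the 5′ end. The remaining bases add to pairing, and in this array design they are what the probe mainly reads. miRNAs are also released in vesicles, and in human T cells the tetramer GGAG in a miRNA is bound by the RNA-binding protein hnRNPA2B1 and favours loading into exosomes. The series names FMRP, another RNA-binding protein, as a sorting factor.

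The mature sequences are shown because their G-rich stretches and seeds differ in place. They were matched by name in RefSeq (build GRCr8), written 5′ to 3′ with the seed in capitals.
miR-1896: uGGUGGGUgaggaggagg
miR-6216: gAUACACAgaggcaggaggagaa
miR-3584-5p: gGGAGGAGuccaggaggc
miR-3473: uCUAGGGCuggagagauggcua
No seed is shared within the set, and 0 other miRNAs of the 685 on the array with a RefSeq sequence shared a seed with any of the 4. They lie apart in the genome: miR-1896 at chr17:47861018-47861035 on the minus strand, miR-6216 at chr3:65165595-65165617 (minus), miR-3584-5p at chr1:256727582-256727599 (minus) and miR-3473 at chr13:42051730-42051751 (plus). In the RefSeq gene table the hairpin of miR-1896 overlaps Zscan26, a zinc-finger gene with a SCAN domain. The hairpin of miR-3584 overlaps Itprip, whose product interacts with the inositol trisphosphate receptor, and the non-coding LOC120100050. That of miR-3473 overlaps Zranb3, an annealing helicase of stalled replication forks, and that of miR-6216 overlaps 0 other genes. Exon, intron and strand of these overlaps were not analysed here.

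What the 4 share is the tetramer GGAG, in capitals in the next lines.
miR-1896: uggugggugaGGAGGAGg
miR-6216: gauacacagaggcaGGAGGAGaa
miR-3584-5p: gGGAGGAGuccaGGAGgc
miR-3473: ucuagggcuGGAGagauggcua
GGAG was found in 54 of the 685 sequences (7.88%). The 54 include these 4 and miR-1224, which together are the 5 GGAG-holding miRNAs seen on all 4 arrays. The longer run GGAGGAG, in which 2 copies overlap by a base, was picked after the sequences were seen. It occurs in 3 of the 685 (0.438%), and these 3 are miR-1896, miR-6216 and miR-3584-5p. In miR-1896 and miR-6216 the run lies near the 3′ end, whereas in miR-3584-5p it is the seed. GGGG was present in 43 of the 685 (6.28%) and AAUGC in 10 (1.46%), and 0 of the 4 hold either. Of miRNAs with GGAG, 18.5% (10 of 54) were well above background on at least 1 array, against 6.50% (41 of 631) of those without. Since the choice by C-rich probes fixed part of this, the shares are a description only.

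By base composition miR-1896 stood at the edge of the array. It is 66.7% G (12 of 18 bases), a share that 2 of the 685 miRNAs reach, itself included. miR-3584-5p is 55.6% G, reached by 7 of the 685. miR-3473 (40.9%) and miR-6216 (39.1%) are less unusual, with 63 and 70 miRNAs at or above their shares, and the median of the 685 is 23.8%. Detection was more frequent at a high G share, but not throughout. Of the 63 miRNAs at or above miR-3473's share, 14 were well above background on any array and 6 on all 4. Of all 685, 51 were so on any array and 11 on all 4. The 14 and the 6 include miRNAs of the set by the way they were chosen, so this is a description only.

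**Figure D1:**
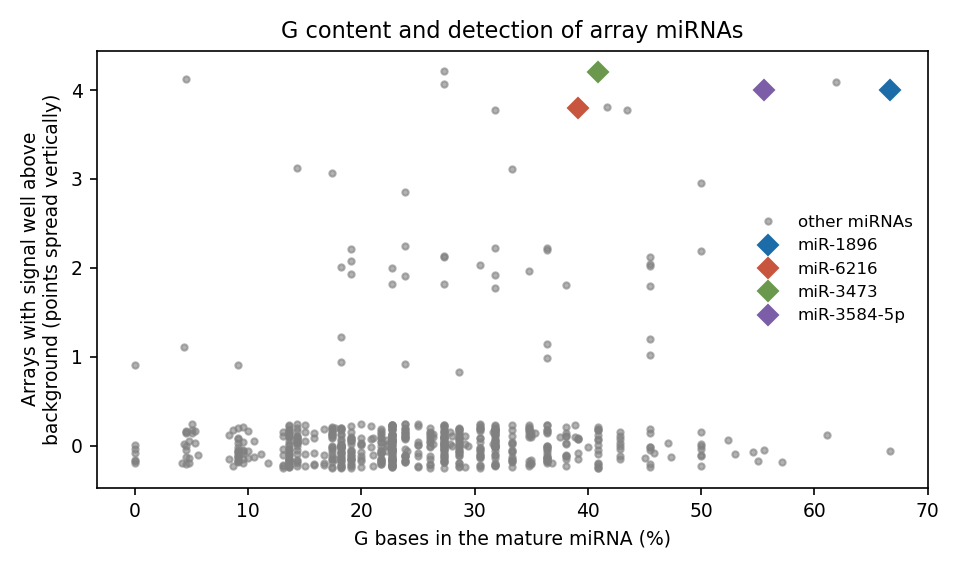
Each point is 1 of 685 array miRNAs, placed by the share of G in its mature sequence (horizontal axis, percent) and the number of arrays, 0 to 4, on which it was well above background (vertical axis, points spread within a row). The 4 coloured diamonds, at 39.1% to 66.7% G, lie in the top row by the way they were chosen, and many grey points at similar G shares lie in the bottom row.

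Each of the 4 is read by 2 probes that differ in length by 1 base, with 8 spots per probe on every array. All 8 probes were exact complements of the RefSeq sequence. They are printed 5′ to 3′ with CTCC, the complement of GGAG, in capitals.
miR-1896, 13 bases: cCTCCTCCtcacc
miR-1896, 14 bases: cCTCCTCCtcaccc
miR-6216, 14 bases: ttCTCCTCCtgcct
miR-6216, 15 bases: ttCTCCTCCtgcctc
miR-3584-5p, 13 bases: gcCTCCtggactc
miR-3584-5p, 14 bases: gcCTCCtggaCTCC
miR-3473, 15 bases: tagccatctCTCCag
miR-3473, 16 bases: tagccatctCTCCagc
The probes pair with the 3′ part of each miRNA. The longer probe covers bases 9 to 23 of miR-6216 and no base of its seed. For miR-3473 it covers bases 7 to 22, which takes in 2 of the 7 seed bases. For miR-1896 and miR-3584-5p it covers bases 5 to 18, which takes in 4. CTCC was in a probe of 40 of the 758 miRNAs (5.28%). Of these 40, 10 were well above background on any array (25.0%), against 45 of the other 718 (6.27%). The 10 include the 4 described here by the way they were chosen, so these shares too are a description only. The longest run that a longer probe's target shares with another array miRNA was 8 bases for miR-1896 (with miR-6216) and miR-6216 (with miR-1896 and miR-344g). It was 9 bases for miR-3584-5p (with miR-665) and for miR-3473 (with miR-711). Binding of any miRNA to another's probe was not tested.

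miR-3473 differs from the other 3 in a way that reaches beyond the array. Its bases 5 to 21, in capitals in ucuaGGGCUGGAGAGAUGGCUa, spell the start of the rodent B2 family of short interspersed repeats, as background. These 17 bases, chosen after the sequence was seen, occurred on either strand in 82 of 33469 RefSeq promoter windows (0.245%). Among all stretches of 14 bases in each miRNA, the most frequent was in 120 windows for miR-3473, 6 for miR-6216 and 2 each for miR-1896 and miR-3584-5p. These are matches of letters in promoter DNA and say nothing of RNA in vesicles.

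On the whole array, 42 and 45 miRNAs were well above background on the M1_OA arrays, against 23 and 13 on the M0_sham arrays. Separate rats or cultures are not named for the replicates in the labels. The p-values therefore measure only the spread among these arrays, possibly technical, and precision is limited by their number. The arrays were on 1 slide but read in 2 scan sessions that each held a single group, and the sessions' effect cannot be told apart from the groups'. The labels' protocol names 0.2 µg RNA and a linear amplification kit, and it is not clear that this text describes these miRNA arrays. The labels do not say whether the serum was depleted of vesicles, and fewer vesicles cannot be told apart from less of a miRNA per vesicle. Of 7 myeloid marker miRNAs, both M1_OA arrays showed 5 well above background, while 0 were so on both M0_sham arrays. Their summed signal was 757 and 564 in M1_OA vesicles, against 26.3 and 16.8 in M0_sham vesicles. The other two, miR-142-3p and miR-142-5p, reached that level on 0 of the 4 arrays. The red cell, liver, epithelial, stromal, endothelial and neuronal markers reached it on 0 arrays, and of 3 muscle markers 1, miR-206-3p, was on at least 1 array. Among the 5 myeloid markers, miR-223-3p was well above background on 3 of the 4 arrays. The groups also differ in polarisation, and myeloid content cannot be told apart from a response to it. The part of the myeloid markers in the unscaled differences of the 4 miRNAs was not tested.

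All 4 miRNAs were among the brightest on every array, in places 2 to 8 of 758 by summed signal. They were chosen by their signal, so these places are a description only. Signals are background-subtracted intensities in arbitrary units, averaged over the unmarked spots of a probe and summed over both probes, before any scaling. Together the 4 held 12.1% and 10.3% of the summed signal of all miRNAs well above background on the M1_OA arrays, against 10.9% and 10.8% on the M0_sham arrays. miR-1224 alone held 74.5% to 82.1%.

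miR-1896 had signals of 1291 and 1151 in M1_OA vesicles, against 47.5 and 96.3 in M0_sham vesicles. Both M1_OA arrays lay far above both M0_sham arrays, and its place was 2 on both M1_OA arrays, against 6 and 5 on the M0_sham arrays. Without scaling it rose 18.0-fold (log2 difference 4.17 ± 0.40 SE, n = 2 arrays each; limma, Benjamini-Hochberg (BH) adjusted p = 4.89e-04).

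miR-6216 gave 359 and 314 in M1_OA vesicles, against 46.1 and 42.8 in M0_sham vesicles. The arrays of a group lay close together and the groups did not overlap. Unscaled, it rose 7.56-fold (log2 difference 2.92 ± 0.22 SE, n = 2 each; limma, BH-adjusted p = 2.89e-04).

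miR-3473 gave 956 and 581 in M1_OA vesicles, against 145 and 335 in M0_sham vesicles. The groups did not overlap, but within each group 1 array was clearly brighter than the other. It rose 3.37-fold unscaled (log2 difference 1.75 ± 0.50 SE, n = 2 each; limma, BH-adjusted p = 0.0257).

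miR-3584-5p gave 267 and 262 in M1_OA vesicles, against 156 and 227 in M0_sham vesicles. The gap between the groups, 227 to 262, was smaller than the gap between the M0_sham arrays. Unscaled, the log2 difference was 0.49 ± 0.27 (SE, n = 2 each) and missed the threshold (limma, BH-adjusted p = 0.163). The opposite arm of the same hairpin, miR-3584-3p, was nowhere well above background (-3.70 and -3.68 in M1_OA vesicles, 2.79 and -1.99 in M0_sham vesicles).

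**Figure D2:**
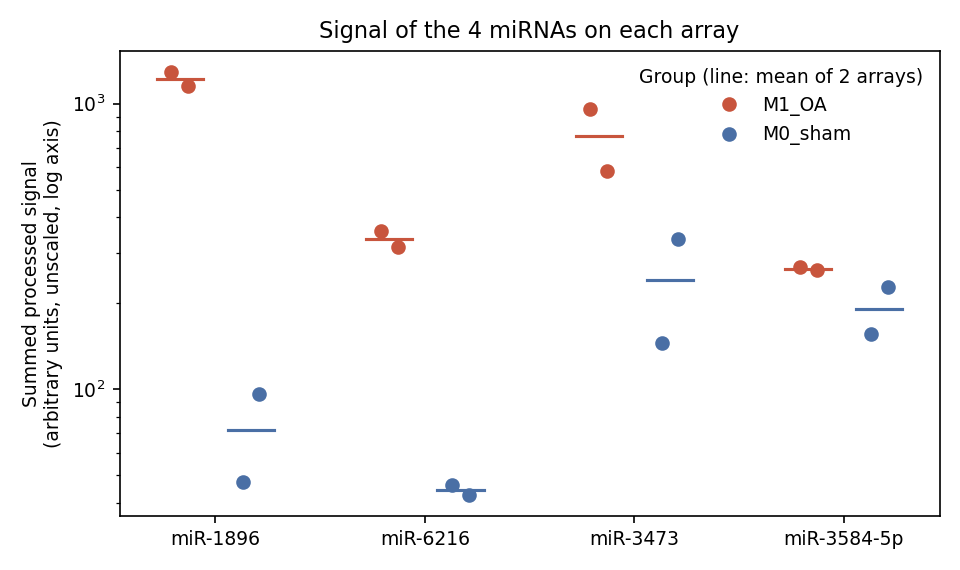
Summed processed signal (arbitrary units, unscaled, log axis) of each miRNA on the 2 M1_OA arrays (left of each pair) and the 2 M0_sham arrays (right), with a line at the mean. The gap between groups is widest for miR-1896 (1291 and 1151 against 47.5 and 96.3) and narrowest for miR-3584-5p (267 and 262 against 156 and 227).

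Before scaling, then, 3 of the 4 passed as higher in M1_OA vesicles, where 32 of the 41 miRNAs tested across the array did (78%). The groups did not overlap for all 4, as for 80.5% of the 41 with M1_OA higher and 4.88% with M1_OA lower. The 4 had a median log2 difference of 2.34, against 1.96 over the 41. The shares of the 4 are near those of the 41 and are not a result about the 4. A miRNA was tested if both arrays of some group showed it well above background, which left these 41. Only 13 miRNAs were so on M0_sham replicate 2, so most of the 41 entered through the M1_OA arrays alone. That filter fixed part of the shares of the 41, here and below. Of the other 7 miRNAs seen on all 4 arrays, 1 passed as higher, with a median log2 difference of 0.68. The 4 were chosen by their signal, so this too is a description only. For all tests the threshold was a BH-adjusted p of 0.05 over all miRNAs tested.

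The choice of scaling between arrays changed the call of miR-6216, miR-3473 and miR-3584-5p and the direction of miR-3584-5p, while miR-1896 passed as higher under each scaling given here. The scaling takes the 75th percentile over the 11 miRNAs seen on all arrays. That percentile was 657 and 448 on the M1_OA arrays, against 151 and 202 on the M0_sham arrays, and it was set largely by the miRNAs described here. On both M1_OA arrays it fell between miR-6216 and miR-3473. On M0_sham replicate 1 it fell between miR-3473 and miR-3584-5p, and on replicate 2 between miR-466b-5p and miR-3584-5p. A change of these miRNAs thus moved the yardstick with which it was measured.

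With this scaling miR-1896 rose by a log2 difference of 2.53 ± 0.30, or 5.79-fold (SE, n = 2 each; limma, BH-adjusted p = 0.0063). Its scaled signals were 604 and 791 in M1_OA vesicles, against 97.0 and 147 in M0_sham vesicles. miR-6216 rose by 1.28 ± 0.27, or 2.43-fold (limma, BH-adjusted p = 0.0272), with scaled signals of 168 and 216 in M1_OA vesicles, against 94.0 and 65.2 in M0_sham vesicles. Neither group pair overlapped.

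miR-3584-5p fell on this scale, with a log2 difference of -1.15 ± 0.24 (SE, n = 2 each; limma, BH-adjusted p = 0.0261). Its scaled signals were 125 and 180 in M1_OA vesicles, against 318 and 346 in M0_sham vesicles. miR-3473 missed the threshold at 0.12 ± 0.33 (limma, BH-adjusted p = 0.763), and its scaled signals overlapped (447 and 399 in M1_OA vesicles, 297 and 511 in M0_sham vesicles). Of the 4, then, 2 passed as higher and 1 as lower, where 53.7% of the 41 passed as higher and 9.76% as lower. After scaling, 58.5% of the 41 had groups that did not overlap with M1_OA higher, and 19.5% with M1_OA lower.

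When the 4 were left out of the yardstick, the percentile over the remaining 7 was 78.3 and 137 on the M1_OA arrays, against 113 and 128 on the M0_sham arrays. It fell between miR-32-3p and miR-466b-5p on all 4 arrays. The log2 differences then were 4.38 for miR-1896, 3.13 for miR-6216, 1.97 for miR-3473 and 0.70 for miR-3584-5p, each close to its unscaled value. 3 passed as higher, as did 78% of the 41, whereas miR-3584-5p missed the threshold (limma, BH-adjusted p = 0.265). In this fit limma pooled the variance over all miRNAs, so that every miRNA had the same SE of 0.59.

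Further yardsticks that hold none of the 4 shifted all 4 alike. They apply 1 factor per array, so the order of the 4 could not change. Scaled to the signal of 2 labelling spike-in controls, the log2 differences were 4.77, 3.51, 2.35 and 1.09 for miR-1896, miR-6216, miR-3473 and miR-3584-5p. All 4 passed as higher (limma, BH-adjusted p from 3.46e-04 to 0.0107), as did 82.9% of the 41. The mean spike-in signal was 462 and 407 on the M1_OA arrays, against 602 and 711 on the M0_sham arrays. With the percentile over the 6 of the 11 miRNAs whose probes lack CTCC they were 3.77, 2.52, 1.36 and 0.094. miR-1896 and miR-6216 passed as higher (limma, BH-adjusted p = 0.0031 and 0.0121), as did 51.2% of the 41, and miR-3473 and miR-3584-5p did not (limma, BH-adjusted p = 0.15 and 0.901).

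The authors' deposited table of log2 values resembled the first scaling. miR-1896 had 7.32 and 7.11 in M1_OA vesicles, against 5.24 and 5.47 in M0_sham vesicles, and passed as higher (log2 difference 1.86 ± 0.21 SE; limma, BH-adjusted p = 0.0104), as did 43.9% of the 41. miR-3584-5p had 4.91 on both M1_OA arrays, against 6.05 and 6.33 on the M0_sham arrays, and passed as lower (-1.29 ± 0.20; limma, BH-adjusted p = 0.0178), as did 9.76% of the 41. miR-6216 (0.65; limma, BH-adjusted p = 0.114) and miR-3473 (0.061; limma, BH-adjusted p = 0.962) did not pass. Each column holds 67 or 68 distinct values above the table's floor, and any 2 columns share 61 to 64 of them. Quantile normalization of the signals gave 1.84 for miR-1896, 0.54 for miR-6216, 0.11 for miR-3473 and -1.62 for miR-3584-5p. miR-1896 and miR-3584-5p passed (limma, BH-adjusted p = 0.00191 each), where 39% of the 41 passed as higher and 7.32% as lower. miR-6216 and miR-3473 did not (limma, BH-adjusted p = 0.0685 and 0.893). Quantile normalization gives equal ranks equal values, and miR-3584-5p held place 7 on both M1_OA arrays and 3 on both M0_sham arrays. Such a p does not measure the spread of the signals between arrays. The authors' values, largely shared between columns, may carry the same limit.

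**Figure D3:**
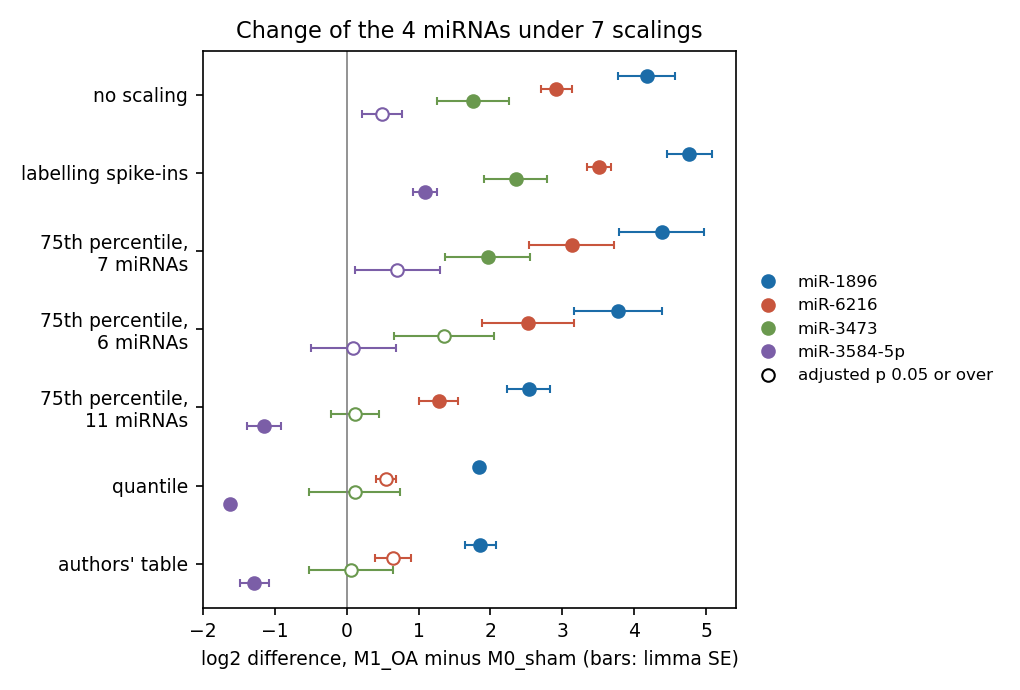
log2 difference, M1_OA minus M0_sham, of each miRNA (horizontal axis, bars are limma's SE) under 7 scalings (rows), filled where the BH-adjusted p was under 0.05. The percentile over 7 miRNAs leaves out the 4 described here, and that over 6 leaves out those with CTCC in a probe. The order miR-1896, miR-6216, miR-3473, miR-3584-5p stays in all 7 rows while the whole set shifts, so that miR-3584-5p lies between -1.62 and 1.09. Scaling by 1 factor per array cannot change the order, so only the quantile and authors' rows could have done so.

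A scaling by 1 factor per array, such as the percentiles or the spike-ins, leaves differences between miRNAs of an array as they are. Quantile normalization and the authors' table do not: in the authors' deposited table the change of miR-1896 minus that of miR-3584-5p was 3.15, and minus that of miR-3473 1.80. In the unscaled signals the log2 change of miR-1896 exceeded that of miR-3584-5p by 3.68 ± 0.25 (SE, n = 2 each), a 12.8-fold unequal change. It exceeded that of miR-3473 by 2.42 ± 0.29 and that of miR-6216 by 1.25 ± 0.56. The change of miR-6216 exceeded that of miR-3584-5p by 2.43 ± 0.33 and that of miR-3473 by 1.16 ± 0.71. The change of miR-3584-5p lay below that of miR-3473, at -1.26 ± 0.48. In all 6 pairs the within-array ratios of the groups did not overlap. The 6 pairs are built from only 4 miRNAs and are not independent. The share of such pairs among the other tested miRNAs was not worked out, so the count is a description only. An exact permutation of 2 against 2 arrays gave p = 0.333 (two-sided) for each pair, the smallest it can give, also after BH adjustment over the 6. An unequal change does not show which of 2 miRNAs moved. Probes of 1 miRNA could also change unequally between the groups. The log2 ratio of longer to shorter probe differed by -0.89 for miR-1224 and -0.79 for miR-466b-5p. It differed by -0.17 for miR-1896, 0.015 for miR-3584-5p, 0.070 for miR-32-3p and -0.061 for miR-672-5p. The part of unequal probes in the smaller differences between miRNAs was not tested.

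**Figure D4:**
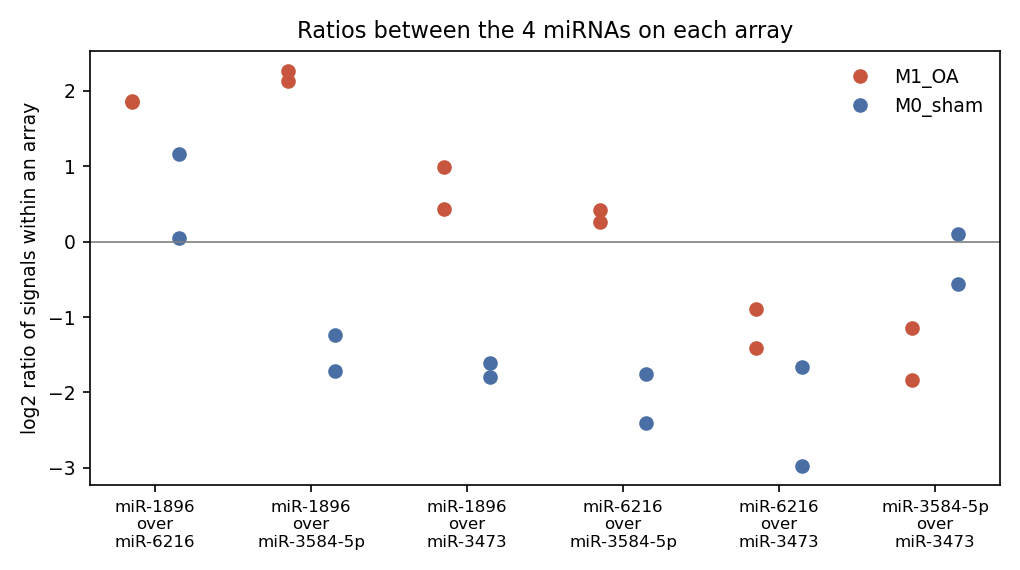
log2 ratio of the signals of 2 miRNAs within an array, for the 6 pairs, on M1_OA arrays (left) and M0_sham arrays (right). Probes differ in brightness, so the height of a ratio has no meaning and only the gap between the groups is read. It is widest for miR-1896 over miR-3584-5p, by 3.68, and narrowest for miR-6216 over miR-3473, by 1.16.

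Profiles over the arrays differed within the set. Over the 4 arrays, unscaled and each centred on its own mean, the nearest of the 10 other all-array miRNAs to miR-1896 were miR-6216 (root mean square distance 0.74 log2) and miR-1224 (0.97). Nearest to miR-6216 were miR-1224 (0.52) and miR-1896 (0.74). miR-3473 was nearest to miR-1224 (0.34) and miR-423-5p (0.58). miR-3584-5p, in contrast, lay nearest to miR-1249 (0.26) and miR-32-3p (0.34), whose unscaled log2 differences were 0.035 and 0.33. Among the other 7 all-array miRNAs the unscaled median was 0.68, with 1, miR-1224, passing as higher.

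The spots of a probe agreed well where the signal was high. Of the 256 spots of the 4 miRNAs, 25 were marked as outliers by the scanner software and left out, and 0 were saturated. Over the rest the coefficient of variation per probe and array was 1.21% to 10.3% for miR-1896 and 2.18% to 9.36% for miR-3584-5p. It reached 31.8% for miR-6216 and 45.7% for miR-3473, on the dim shorter probe of each in M0_sham replicate 1.

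For miR-1896 and miR-3584-5p the probes of 13 and 14 bases gave nearly the same signal. The longer probe of miR-1896 gave 1.07 and 1.06 times the shorter probe's signal on the M1_OA arrays, against 1.25 and 1.14 times on the M0_sham arrays. For miR-3584-5p the ratios were 1.04 and 0.992 in M1_OA vesicles, against 1.00 and 1.01 in M0_sham vesicles. Fitted per probe over 62 probes with the first scaling, both probes of miR-1896 rose (log2 difference 2.63 and 2.45; limma, BH-adjusted p = 0.00529 and 0.00504). Both of miR-3584-5p fell (-1.15 and -1.14; limma, BH-adjusted p = 0.0230 and 0.0207).

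For miR-6216 the 2 probes gave unequal changes. The probe of 14 bases read 119 and 104 on the M1_OA arrays, against 5.80 and 8.35 on the M0_sham arrays, where 2 and 0 of its 8 spots were well above background. The probe of 15 bases read 240 and 210 in M1_OA vesicles, against 40.3 and 34.4 in M0_sham vesicles. The longer probe was 2.02 and 2.01 times as bright as the shorter on M1_OA arrays, against at least 5.27 and at least 2.68 times on M0_sham arrays. Because the shorter probe had only a bound in M0_sham vesicles, its change was at least 11.2-fold before scaling and at least 3.61-fold after. These bounds set the M1_OA values against the lowest probe signal well above background on each M0_sham array, and they were not tested. The fit gave 13.9-fold before scaling and 5.14-fold after (limma, BH-adjusted p = 5.28e-04 and 0.00305). The first p rests on a M0_sham replicate 1 value raised to the floor, the second on the measured values. Neither fit resolves the M0_sham level, since the probe was not well above background there. The longer probe rose 6.03-fold before scaling (limma, BH-adjusted p = 7.65e-04) and did not pass after it (log2 difference 0.95; limma, BH-adjusted p = 0.0615).

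For miR-3473 a single base separated a dim probe from a bright one. With 16 bases the probe read 899 and 547 in M1_OA vesicles, against 141 and 318 in M0_sham vesicles, and with 15 bases 57.3 and 34.0 in M1_OA vesicles, against 4.91 and 17.4 in M0_sham vesicles. The shorter probe was well above background on 1 of the 2 M0_sham arrays. The ratio of longer to shorter was 15.7 and 16.1 in M1_OA vesicles, against at least 18.4 and a measured 18.3 in M0_sham vesicles. The summed signal of miR-3473 therefore rests almost wholly on 1 probe. With the first scaling the longer probe differed by 0.092 on the log2 scale and missed the threshold (limma, BH-adjusted p = 0.790), and it passed as higher without it (1.73; limma, BH-adjusted p = 0.0405). The change of the shorter is not resolved, because its M0_sham replicate 1 value is only a bound. With that array at its limit the fold was 3.83 before scaling and 1.23 after.

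Per probe, 3 of the 8 probes passed as higher and 2 as lower with the first scaling, where 54.8% and 8.06% of the 62 did. Without scaling 6 of the 8 passed as higher, as did 79% of the 62. The 6 include the shorter probes of miR-6216 and miR-3473, which are unresolved on 2 and 1 of the M0_sham arrays. Other miRNAs also had unequal probes. Of the 6 probe pairs on the array that differ by 1 base and were well above background on all 4 arrays, 4 belong to other miRNAs. The pair of miR-1224 had ratios of 7.74 and 7.85 in M1_OA vesicles, against 13.96 and 14.86 in M0_sham vesicles. That of miR-466b-5p had 1.60 and 1.64 in M1_OA vesicles, against 3.26 and 2.40 in M0_sham vesicles, and the pairs of miR-32-3p and miR-672-5p lay between 0.891 and 1.11.

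**Figure D5:**
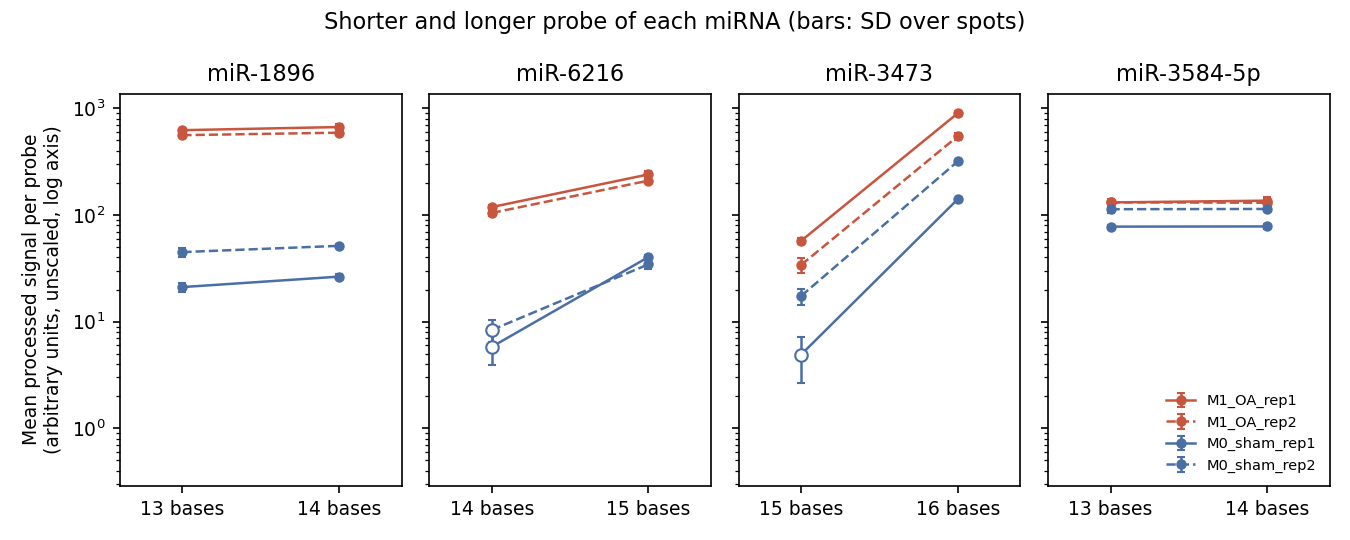
Mean processed signal (arbitrary units, unscaled, log axis) of the shorter and the longer probe of each miRNA on each array, with bars for the SD over unmarked spots. Open points are not well above background, so the slopes of their lines are not resolved. The lines are flat for miR-1896 and miR-3584-5p and steep for miR-3473 (15.7 and 16.1 times on M1_OA arrays), and for miR-6216 the longer probe was 2.02 and 2.01 times as bright on M1_OA arrays, against at least 5.27 and 2.68 times on M0_sham arrays.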

How the data were processed

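Each deposited scanner file lists an intensity per spot, made with Agilent Feature Extraction 10.7.1.1 per its header. Per the file headers, spatial detrending and outlier marking were on. In the files the processed signal is the mean signal minus the background used. The deposited table of log2 values comes from the authors, its lowest value is -3.32, and its normalization is not given in the sources used here. 8 of its 766 entries are not miRNAs and were left out. The files also hold other values per the file headers, namely spot flags of 0 or 1.

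Processed signals of unmarked spots were averaged per probe and summed per miRNA (1806 probes, 12128 spots). A miRNA counted as well above background if any of its probes had that flag on more than a 0.5 share of its spots. Scaling divided by the array's 75th percentile over the 11 miRNAs seen on all 4 arrays, relative to the percentiles' geometric mean. A floor of 7.90, the lowest scaled signal among detected miRNAs, was applied before taking log2. Then 41 miRNAs were tested with limma 3.58.1 (lmFit, eBayes, two-sided, BH) in R 4.3.3. The fit was tested on simulated data. Plots used matplotlib 3.10.9 in Python 3.11.15. Alternatives covered scaling, background correction, filter, floor, probe summary, variance prior, replicate numbers and each replicate left out. Sequences are RefSeq's (GRCr8), matched by name for 685 of 758 miRNAs. By rule the text names the 4 miRNAs, those sharing a seed or number, the 2 nearest profiles for each, and all-array holders of the motifs GGAG, GGGG and AAUGC (for GGGG these were miR-1224 and miR-423-5p). Marker miRNAs, those sharing the longest runs with a probe target and those next to a percentile or with paired probes were named after their values were seen. The 4 miRNAs and the lists were chosen with earlier results of these data known.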

Additional observations from a re-analysis of the deposited data

How the results depend on the processing

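miR-1896 kept its direction in all 24 alternatives and its call in 21. The call ended with no filter (2.53, unchanged, with 758 miRNAs tested) and without either M1_OA array. Direction could not change with only all-array miRNAs, no filter, a floor of 1, another variance prior or a replicate block. These leave the value of each of the 4 as it is. Leaving out each array in turn, with the lone array assumed to vary like the other group, gave 2.34 to 3.09 for miR-1896, 1.1 to 1.75 for miR-6216, -1.41 to -0.83 for miR-3584-5p and -0.066 to 0.76 for miR-3473. miR-6216 kept its direction throughout and lost its call in 9 alternatives. They were quantile normalization (0.54), normexp (0.32), the authors' table (0.65), only all-array miRNAs or no filter (1.28 each), all spots required (0.81), the longest probe (0.35) and either M1_OA array left out. miR-3584-5p was lower in the first scaling and turned without scaling (0.49), with the spike-ins (1.09), the percentile without the 4 (0.70) and that without CTCC (0.094). Its call ended with only all-array miRNAs, no filter or a variance trend (-1.15 each), with Feature Extraction's total gene signal (-1.09, added after seeing the data), and without M0_sham replicate 1 (-1.0) or M1_OA replicate 1 (-0.88). miR-3473 passed as higher without scaling (1.75), with the spike-ins (2.35) and without the 4 (1.97). It turned with all spots required (-0.35), with the longest probe (-0.51) and without M0_sham replicate 1 (-0.066). The cause of these changes was not tested.

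Over the 41, 22 passed as higher and 4 as lower. The count of higher calls was 34 with the spike-ins, 4 with normexp, 1 with only all-array miRNAs, 11 with no filter and 8 with the shortest probe, and 13 to 21 with an array left out. Lower calls numbered 0 without scaling, with the spike-ins, without the 4 and without CTCC. They numbered 25 with normexp, 2 with only all-array miRNAs, 7 with the longest probe, 2 with the total gene signal and 0 to 9 with an array left out. With no scaling 6 probes of the 4 miRNAs passed as higher and 0 as lower, against 3 and 2. With the replicate number as a block there were 19 higher and 7 lower calls, and miR-1896, miR-6216 and miR-3584-5p kept theirs. The numbers are not known to pair arrays (correlation of same-numbered deviations 0.31 over 41 miRNAs).

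All 6 differences between the miRNAs kept their direction. miR-1896 minus miR-6216 was 0.26 with the shortest probe and 0.69 to 1.82 with an array left out. miR-1896 minus miR-3584-5p was 2.48 with normexp, 3.15 in the authors' table and 3.44 to 3.92. miR-1896 minus miR-3473 was 2.01 with the shortest probe, 1.49 with normexp, 1.80 in the authors' table and 2.14 to 2.69. miR-6216 minus miR-3584-5p was 3.52, 1.16 and 1.94 in the same order and 2.10 to 2.75. miR-6216 minus miR-3473 was 0.17 with normexp and 0.51 to 1.82. miR-3584-5p minus miR-3473 was -1.77 with the shortest probe and -1.61 to -0.92. The percentile over all miRNAs was not above 0 on any array and was not run. Probe signals under the lowest one well above background (7.64 and 12.8 on the M0_sham arrays) are not resolved, which touches the shortest-probe values of miR-6216 and miR-3473.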
